A study of Mustela putorius furo with 8 samples.

Results

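Cluster 12 of the cystic fibrosis (CF) cultures is a group of ferret pancreatic ductal epithelial cells that the authors' clustering set apart and their annotation named ductal. Its members were taken from the cluster column of the deposited cell annotation, with no further selection. It held 395 of 11345 retained CF cells and of 32945 retained cells in the whole series. Of the 395 cells, 329 came from the library of day 5 at the air-liquid interface, 50 from day 7, 12 from day 9 and 4 from day 2. The comparison below sets the 391 cells of day 5 to 9 against the 6455 other CF cells of the same 3 libraries.

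The series is single-cell RNA sequencing of primary ductal epithelium from newborn ferrets (1 to 3 days old), expanded to passage 10, seeded at 100000 cells per well and grown at the air-liquid interface. CF cells carried a disrupted CFTR gene on both alleles (CFTR KO/KO), and the wild-type (WT) cells carried intact CFTR. Each of the 4 CF and 4 WT libraries, at days 2, 5, 7 and 9, pooled cells of 3 donors that the annotation does not separate. Every genotype and day had a single library, so no difference between days or genotypes has a replicate check, and no p-value is given. Because the cluster was drawn from the same expression values, every gene contrast with the other CF cells is a description. Intervals are exact 95% intervals that cover counting error only.

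CFTR, an apical chloride and bicarbonate channel, is the targeted gene. Its level ranged from 2.50 to 11.4 UMIs per 1000000 UMIs (CPM) over the CF libraries and from 6.57 to 29.5 CPM over the WT libraries, and 3′ tag counts are no check of the disruption. Within cluster 12, CFTR stood at 10.3 CPM against 10.1 in the other CF cells. PDX1, the homeobox factor that specifies the pancreas, stood at 5.37 against 4.63 CPM, and PAX6, another homeobox factor of the developing pancreas, at 55.1 against 59.6 CPM. No UMI of SOX2 was counted in cluster 12 at day 5, which allows up to 0.296 CPM, and SOX2 stood at 0.0347 CPM in the other CF cells. Over whole libraries it ran from 0.00977 to 0.0864 CPM in CF and from 68.5 to 114.5 CPM in WT, so its low level was not particular to the cluster.

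The labels by which the cluster is known combine genes of several epithelia. UPK3A encodes uroplakin 3a, one of the plaque proteins of the apical membrane of bladder umbrella cells. GKN1 encodes gastrokine 1, a secreted protein of the gastric surface mucosa, and APOH encodes beta-2-glycoprotein I, a plasma protein made mainly by hepatocytes. CRABP2 carries retinoic acid from the cytosol to its nuclear receptors. SELENBP1 is a selenium-binding protein with methanethiol oxidase activity, and BCAS1 is a gene first described in amplified regions of breast cancer. In the pancreas, ductal cells line the tubes that carry enzymes away from the acini, and they secrete bicarbonate-rich fluid through CFTR.

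Cluster 12 was chiefly a day 5 population. It took 0.0889% of the retained CF cells at day 2 (4 of 4499, interval 0.0242 to 0.227%), 11.96% at day 5 (329 of 2750, 10.8 to 13.2%), 3.11% at day 7 (50 of 1607, 2.32 to 4.08%) and 0.482% at day 9 (12 of 2489, 0.249 to 0.841%). The 4 counting intervals did not overlap. With 1 library a day, the day and the library cannot be told apart.

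**Figure D1:**
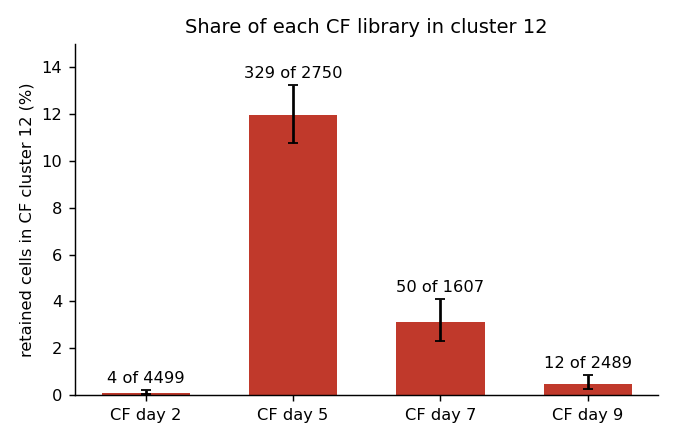
Share of the retained cells of each CF library that fell in cluster 12, in percent, with exact 95% binomial intervals as bars and the cell numbers above. The share was highest in the day 5 library, at 11.96%, and lower at day 7 (3.11%), day 9 (0.482%) and day 2 (0.0889%).

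The cells of the cluster were deeply sequenced. At day 5 their median was 28817 UMIs and 5046 genes a cell, against 22112 UMIs and 4681 genes in the other CF cells of that library. Over all days the cluster's median of 29276 UMIs ranked 5 among the 30 CF clusters. The median mitochondrial share at day 5 was 8.24% in the cluster and 6.53% in the other cells, and at day 7 it was 9.11% and 5.60%. The part of depth and mitochondrial share in the differences below was not tested beyond the alternatives that leave out cells by each. Of the 395 cells, 8 shared a barcode with a cell of another library, 4 of them with a cell of a CF library. In the whole series 297 of 32945 retained cells did so.

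The 6 label markers were higher in cluster 12 than in the other CF cells of the same library at both day 5 and day 7. UPK3A stood at 111 CPM (interval 105 to 118) at day 5, 147 at day 7 and 201 at day 9 within the cluster, and at 40.3, 54.8 and 56.8 CPM in the other CF cells of those days. The cluster was the higher on each day, by 2.76-fold at day 5 (2.57 to 2.96) and 2.69-fold at day 7 (2.36 to 3.06). GKN1 stood at 194, 149 and 208 CPM within the cluster and at 71.2, 47.2 and 40.5 CPM outside it. Its ratio was 2.73 at day 5 (2.58 to 2.88) and 3.17 at day 7 (2.78 to 3.60).

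APOH was the least abundant of the label markers, and gave the largest ratio. It stood at 15.1 CPM at day 5 and 27.6 CPM at day 7 within the cluster, against 4.97 and 3.74 CPM outside it. At day 9 a single APOH UMI was counted in the cluster's 12 cells, so its 3.30 CPM there (0.0836 to 18.4) holds no information beyond that count. CRABP2, by contrast, was abundant. It stood at 930, 1611 and 3206 CPM at days 5, 7 and 9 within the cluster and at 393, 590 and 669 CPM outside it, so that its level was higher on each later day in both sets of cells.

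SELENBP1 and BCAS1 differed least. SELENBP1 stood at 46.6 and 47.6 CPM at days 5 and 7, against 28.2 and 26.4 CPM in the other cells, and BCAS1 at 134 and 137 CPM against 76.6 and 76.0. Over the 3 days together, 4 of the 6 markers (UPK3A, APOH, CRABP2 and GKN1) were at least 2-fold higher in cluster 12, SELENBP1 was 1.89-fold higher (1.73 to 2.07) and BCAS1 1.71-fold (1.62 to 1.80).

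Only part of this set was highest in cluster 12. Over the summed cells of each of the 30 CF clusters, APOH at 16.7 CPM and GKN1 at 187 CPM were highest in cluster 12 with the days summed. The next clusters were cluster 18 for APOH, at 12.2 CPM, and cluster 25 for GKN1, at 132 CPM. Within day 5, APOH stood at 16.5 CPM in cluster 18 and 15.1 CPM in cluster 12, with overlapping counts (ratio 0.914, 0.652 to 1.31). CRABP2 ranked 2 in cluster 12 behind cluster 21, a cluster of low-count cells at a median of 1043 UMIs, and its interval (1070 to 1107) overlapped that of cluster 18 (1050 to 1091). UPK3A was highest in cluster 18, named centroacinar progenitor, at 181 CPM (173 to 190), and cluster 12 ranked 3 with 118 CPM (113 to 125). SELENBP1 and BCAS1 both ranked 5 in cluster 12, and their highest levels were in cluster 18 (72.3 CPM) and cluster 29 (262 CPM). UPK3A, CRABP2, SELENBP1 and BCAS1 therefore did not single out cluster 12.

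**Figure D2:**
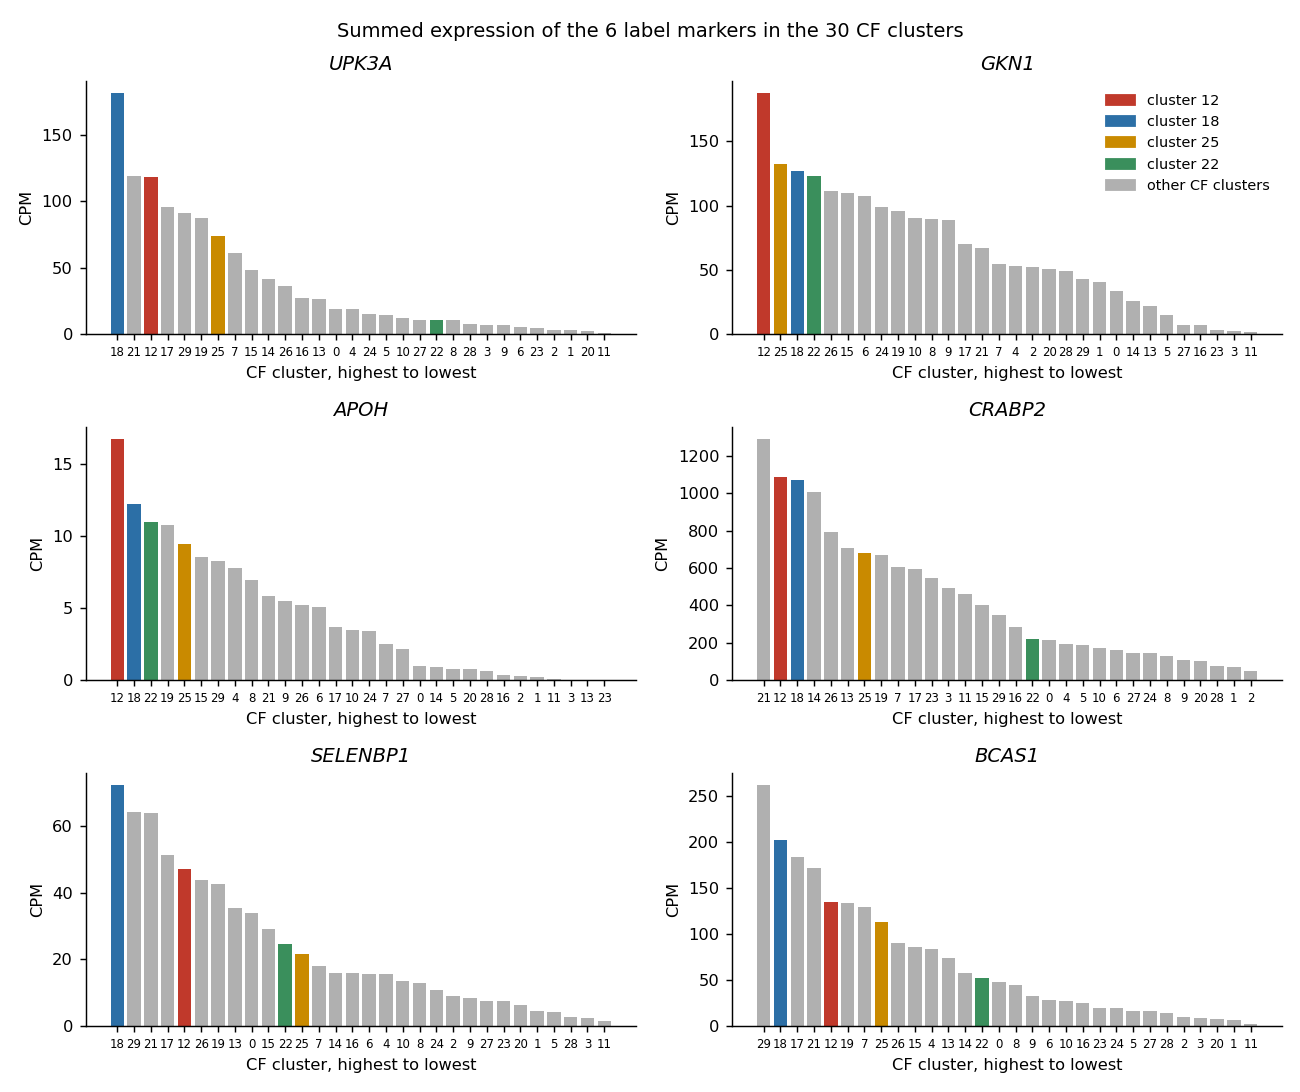
Summed expression in CPM (linear axes from 0) of the 6 label markers in each of the 30 CF clusters, ordered from highest to lowest in each panel, with cluster 12 in red and its 3 nearest clusters in blue (18), gold (25) and green (22). With the days summed, cluster 12 leads for GKN1 (187 CPM) and APOH (16.7 CPM), while UPK3A is highest in cluster 18 (181 CPM) and BCAS1 in cluster 29 (262 CPM).

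UMIs of the markers varied from cell to cell. These libraries hold no cell type known to lack the markers, so the share that free RNA gives was not measured, and a UMI is not read as expression by that cell. Of the 329 day 5 cells, 91.2% had at least 1 UMI of GKN1 (interval 87.59 to 94.02%), 90.9% of BCAS1, 87.5% of CRABP2, 75.7% of UPK3A, 65.7% of SELENBP1 and 33.1% of APOH. In the other day 5 CF cells these shares were 49.9%, 60.6%, 67.0%, 38.7%, 39.4% and 9.38%. These cells were shallower, so each cell was also thinned to 3000 UMIs, which left out 1 cell of the cluster and 44 others. The shares then were 40.9% against 14.6% for GKN1, 25.3% against 8.54% for UPK3A, 64.9% against 39.7% for CRABP2, 31.7% against 18.3% for BCAS1, 12.5% against 8.79% for SELENBP1 and 3.05% against 1.39% for APOH. Thinning kept the cluster above the other cells for every marker, but the intervals of the thinned shares overlapped for APOH (1.47 to 5.54% and 0.958 to 1.94%) and SELENBP1 (9.12 to 16.6% and 7.68 to 10.00%). Thinned to 5000 UMIs, the shares were 6.73% (4.26 to 10.01%) against 1.23% (0.827 to 1.76%) for APOH and 21.4% (17.1 to 26.3%) against 13.3% (11.95 to 14.7%) for SELENBP1, and did not overlap.

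Among day 5 cells of the cluster the middle cell held 5 UMIs of GKN1, 2 of UPK3A, 4 of BCAS1 and 16 of CRABP2, with maxima of 39, 29, 17 and 261. All 6 markers were seen together in 59 of the 329 cells (17.9%), against 95 of 2421 other day 5 CF cells (3.92%), with the depth difference given above. UPK3A and GKN1 were seen together in 230 cells, UPK3A without GKN1 in 19, GKN1 without UPK3A in 70, and neither in 10. GKN1 was found in 92.4% of the cells with a UPK3A UMI (88.3 to 95.3%) and in 87.5% of those without one (78.2 to 93.8%), whose median depths were 30207 and 24300 UMIs. The intervals overlapped, so a difference in GKN1 detection between cells with and without UPK3A was not detectable at this depth. PSCA, a GPI-anchored surface protein of bladder, stomach and prostate epithelium, was found in 84.7% of the cells with a GKN1 UMI (80.1 to 88.6%) and 37.9% of the 29 cells without one (20.7 to 57.7%). The cells without GKN1 were shallower, at a median of 19354 UMIs against 29790.5, and the part of depth was not tested.

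Across all genes, fewer were higher than lower in cluster 12 when it was set against the pool of all other CF cells. Of 14068 genes with at least 30 UMIs in the 2 pools of cells together, 113 (0.803%) were at least 2-fold higher in CPM in cluster 12 and 1845 (13.1%) at least 2-fold lower. The counting interval lay wholly beyond 2-fold for 25 of the higher and 515 of the lower genes, and 45 and 481 of them carry no gene symbol. Within day 5 alone, 80 of 12819 genes were higher (0.624%) and 990 lower (7.72%), and within day 7, 161 of 12189 genes were higher (1.32%) and 1993 lower (16.4%). Against each of the 3 CF clusters most like it, named below, the counts did not lean so far to the lower side. They were 362 higher and 212 lower of 10854 genes against cluster 25, and 406 and 172 of 10662 against cluster 22. Against cluster 18 they were 368 and 394 of 11063. Against the pool, the median gene differed by -0.15 on the scale of log2(CPM + 1). Scaling by edgeR's TMM shifted all log2 ratios up by 0.17, and it raised the higher count to 199 and lowered the lower count to 1563.

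The 20 named genes of highest ratio included 4 of the label markers. KRT4, a keratin of non-keratinised stratified epithelia, stood at 34.5 against 10.1 CPM (3.42-fold, 3.06 to 3.81). PSCA stood at 464 against 166 CPM (2.80-fold, 2.72 to 2.89), with 459 against 161 CPM within day 5. G0S2, an inhibitor of adipose triglyceride lipase, stood at 483 against 173 CPM (2.79-fold, 2.72 to 2.87). ZNF750 and OVOL1, transcription factors of epidermal differentiation, were 2.29-fold and 2.31-fold higher, at 110 and 16.2 CPM. S100A9, a subunit of calprotectin, stood at 56.0 against 23.2 CPM, while its partner S100A8 was barely detected, at 2.44 against 1.71 CPM.

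AREG, which encodes the EGF receptor ligand amphiregulin, stood at 619 against 290 CPM, and PLAU, the urokinase plasminogen activator, at 163 against 71.0 CPM. BCL2A1, an anti-apoptotic BCL2 family member, was 2.36-fold higher (168 against 71.1 CPM), and BIK, a pro-apoptotic member of the same family, 2.02-fold higher (53.7 against 26.6 CPM). The remaining genes were DEPP1 (829 against 368 CPM), RHOV (61.4 against 26.8 CPM), TMPRSS4, a membrane serine protease (46.7 against 21.5 CPM), UCP2, a mitochondrial carrier (17.0 against 7.59 CPM), ADGRF2 (28.9 against 14.01 CPM) and TMEM265 (81.8 against 40.5 CPM). Within day 5 the ratios of these 20 genes ran from 1.498 (UCP2) to 3.03 (APOH). An unnamed protein gene, LOC101680039, singled out after its values were seen, stood at 1312 against 326 CPM.

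Of these 20 genes, TMEM265 alone joined APOH and GKN1 in being highest in cluster 12 among the 30 CF clusters. Its 81.9 CPM was close to a tie with the 81.1 CPM of cluster 4. KRT4 ranked 10, S100A9 13, PLAU 11 and TMPRSS4 10 in cluster 12. These ranks include clusters made mostly of day 2 cells, whose day 2 cells the day 5 to 9 comparison leaves out. All clusters ahead of cluster 12 for PLAU, BCL2A1, UCP2 and ADGRF2 were of that kind. Cluster 25 was the only exception for S100A9 (58.7 against 56.2 CPM) and cluster 26 for TMPRSS4 (58.6 against 46.7 CPM). For the other genes not highest in cluster 12, a cluster made mostly of later cells was also ahead. For KRT4 the highest cluster was cluster 22 (97.5 CPM), which is made almost wholly of day 2 cells. PSCA ranked 6, behind 1144 CPM in cluster 4, of whose 626 cells 613 were of day 2.

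**Figure D3:**
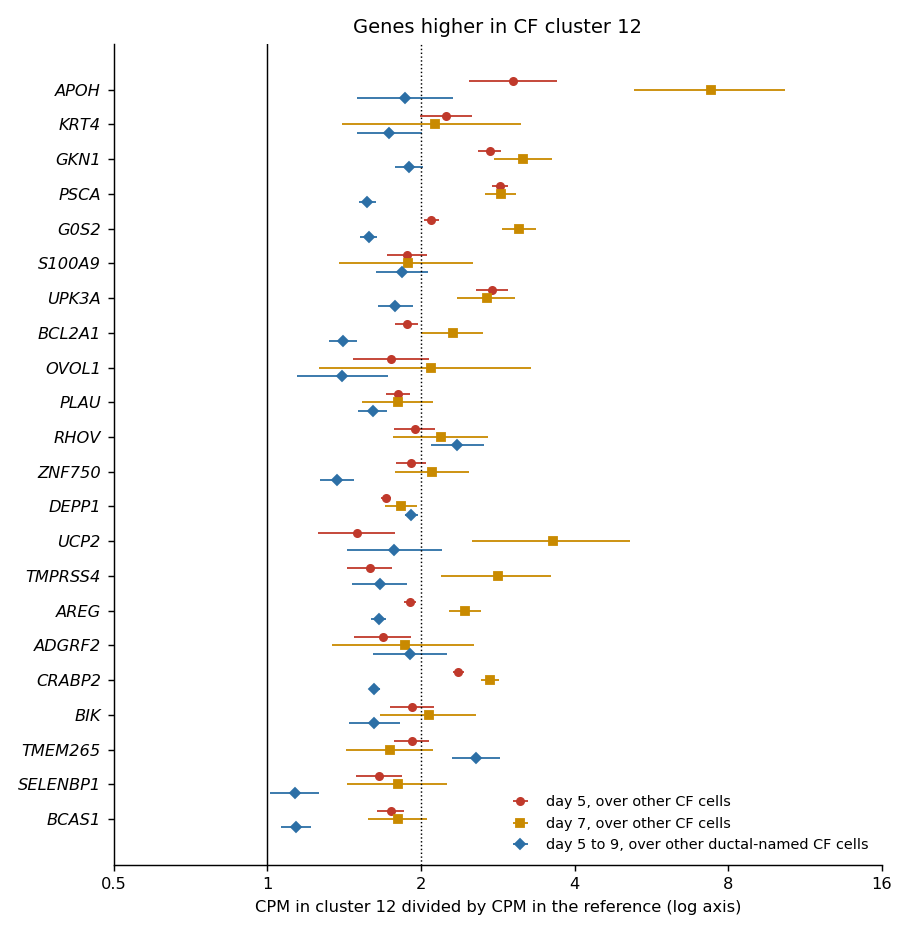
Ratio of CPM in cluster 12 to CPM in the reference cells (log axis) for the 6 label markers and the 20 genes of highest ratio, 22 genes in all. Red circles give day 5 and gold squares day 7 against the other CF cells, blue diamonds day 5 to 9 against the other ductal-named CF cells, lines are exact 95% counting intervals, and the dotted line marks 2-fold. GKN1 stood at 2.73 and 3.17 against all other CF cells and at 1.90 against the ductal-named ones.

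Set against cells of the same name over the 3 days, the marker ratios were smaller, but that of UPK3A was larger within day 5. The other 599 ductal-named CF cells of day 5 to 9 came mainly from cluster 19 (331 cells) and cluster 26 (141 cells), with 56 cells of cluster 10 and 21 of cluster 9. Of these cells 201 were of day 5, 126 of day 7 and 272 of day 9. The day 5 cells held 96 of cluster 26, 53 of cluster 10, 21 of cluster 9 and only 10 of cluster 19. Of 11504 genes, 72 (0.626%) were at least 2-fold higher and 410 (3.56%) at least 2-fold lower in cluster 12 than in these cells, and none of the 6 label markers was among the 72. GKN1 was 1.90-fold higher (1.78 to 2.02), APOH 1.86-fold (1.497 to 2.315), UPK3A 1.78-fold (1.65 to 1.93) and CRABP2 1.62-fold (1.58 to 1.66), while SELENBP1 and BCAS1 were within 1.14-fold. Within day 5, UPK3A was 3.93-fold higher (3.34 to 4.64), at 111 against 28.3 CPM. With the days summed, UPK3A stood at 87.5 CPM in cluster 19, 36.7 in cluster 26, 11.98 in cluster 10 and 7.02 in cluster 9. The day 5 ratio is thus set against a different mix of clusters, and the part of that mix was not tested. The day 5 ratios of the other label markers were 2.15 for APOH, 2.02 for GKN1, 1.62 for BCAS1, 1.60 for CRABP2 and 1.23 for SELENBP1, and KRT4 and G0S2 stood at ratios of 0.908 and 0.997.

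RHOV and TMEM265 kept ratios of at least 2 in this comparison, at 2.36 and 2.56. The genes that led it, chosen after their values were seen, were HSPB1, which encodes the small heat shock protein HSP27, at 575 against 163 CPM (3.54-fold, 3.38 to 3.70), F3, which encodes tissue factor, at 371 against 158 CPM, and UPP1, a uridine phosphorylase, at 86.2 against 37.8 CPM. HSPB1 and F3 were lower in cluster 12 than in all other CF cells, at ratios of 0.652 and 0.605. Other genes were lower in cluster 12 than in these cells. SPINK1, a trypsin inhibitor, stood at 3.66 against 425 CPM, LTF (lactoferrin) at 11.8 against 170 CPM, MUC5AC, a gel-forming mucin, at 8.70 against 70.3 CPM, and TFF3, a trefoil factor, at 20.4 against 164 CPM. Within day 5 the gaps were smaller, with SPINK1 at 3.16 against 6.36 CPM, LTF at 10.65 against 17.4 CPM and TFF3 at 18.5 against 18.6 CPM, while MUC5AC stood at 3.85 against 40.5 CPM. Cluster 19, the highest CF cluster for SPINK1 at 775 CPM, gave only 10 of the 201 reference cells at day 5. The reference clusters thus differ between these values and those of the 3 days together.

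Cluster 12 held little of the 10 named genes of lowest ratio against all other CF cells. TAGLN, the smooth muscle actin-binding protein transgelin, stood at 2.77 CPM in cluster 12 against 340 CPM. FN1 (fibronectin) stood at 2.28 against 250 CPM, SPP1 (osteopontin) at 18.9 against 954 CPM, and SPARC, a collagen-binding matrix protein, at 12.04 against 557 CPM. CALD1, MYL9 and ANKRD1, genes of the contractile and stretch-responsive apparatus, stood at 6.67, 5.29 and 4.39 CPM against 252, 78.6 and 106 CPM. VIM (vimentin) stood at 13.3 against 164 CPM and SRGN, a proteoglycan core protein, at 2.36 against 85.8 CPM, with SPINK1 as the remaining gene.

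Most UMIs of 9 of these genes in the other cells came from 3 clusters. Clusters 3, 11 and 23, named centroacinar, held 19.5% of the other CF cells of day 5 to 9 and 17.2% of their UMIs, but 88.4% of their TAGLN UMIs, 90.6% of FN1, 84.2% of SPP1 and 71.9% of SPARC. These clusters had 17, 2 and 6 cells at day 5, the day of 329 of the cluster 12 cells. Within day 5 the gaps were smaller, with TAGLN at 1.97 against 32.1 CPM, FN1 at 0.986 against 6.82 CPM, VIM at 12.3 against 39.6 CPM and SPINK1 at 3.16 against 34.2 CPM. For SPINK1 the share of UMIs in clusters 3, 11 and 23 was 0.332%, and its highest cluster was cluster 19, at 775 CPM. Cluster 12 lay in the middle of the 30 CF clusters for the 10 genes, at ranks from 12 (SPINK1) to 19 (VIM). The median of these clusters held 2.29 CPM of TAGLN and 2.68 of FN1. The 30 include clusters made mostly of day 2 cells, whose day 2 cells are not in the comparison. Of the clusters made mostly of later cells, only clusters 0, 26 and 29 lay below cluster 12 for FN1. For VIM those below were clusters 15, 17, 18, 19, 25 and 29. Without clusters 3, 11 and 23, a choice made after seeing the data, TAGLN stood at 47.5 CPM in the other cells, a ratio of 0.0583 (0.0403 to 0.0815). The 2-fold counts over 13667 genes were then 95 higher (0.695%) and 1268 lower (9.28%).

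**Figure D4:**
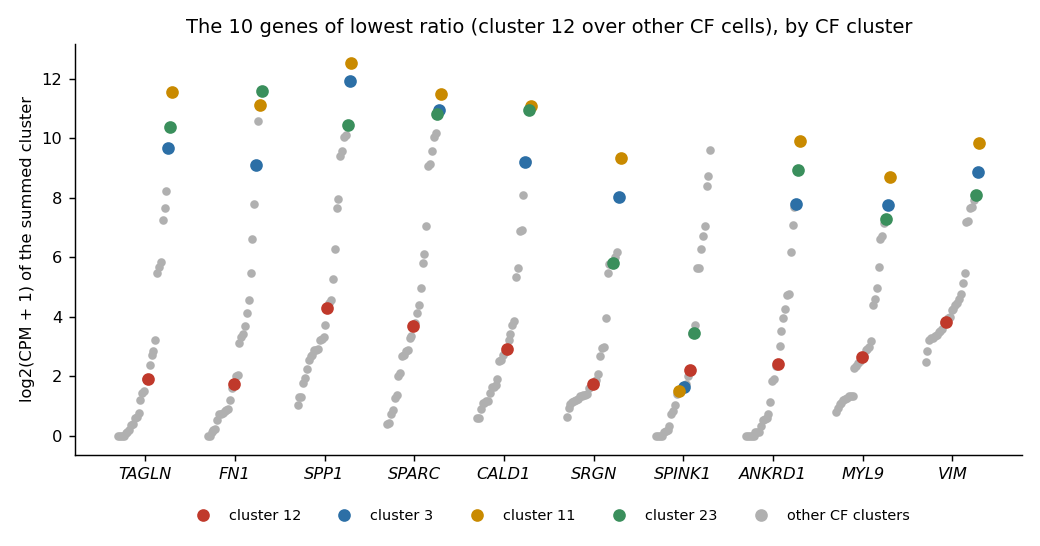
Level of the 10 genes of lowest ratio, as log2(CPM + 1) of the summed cells, in each of the 30 CF clusters (points, spread sideways by rank), with cluster 12 in red and clusters 3, 11 and 23 in blue, gold and green. Cluster 12 sits in the middle of the 30 clusters, which include those made mostly of day 2 cells. It held 2.77 CPM of TAGLN in its day 5 to 9 cells, while clusters 11, 23 and 3 hold 3037, 1324 and 821 CPM.

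Gene lists were read beside the shares of 0.803% higher and 13.1% lower over all genes. Over 38 lists, 342 of 475 listed genes had at least 30 UMIs, and 14 of the 342 were at least 2-fold higher and 110 at least 2-fold lower in cluster 12. The 14 include the label markers UPK3A, GKN1, APOH and CRABP2, and the lists were drawn up with the label known. The share of higher genes on the lists was therefore partly set in advance. Of the uroplakin and umbrella cell list, 2 of 9 genes were at least 2-fold higher, UPK3A and PSCA. UPK1B and UPK1A, the tetraspanin partners of the uroplakin plaque, stood at 521 against 460 CPM and 242 against 233 CPM, UPK2 at 6.67 against 6.64 CPM, and UPK3B at 63.5 against 44.6 CPM.

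Of the gastric surface cell list, GKN1 and VSIG1, a junctional membrane protein of the stomach, were at least 2-fold higher, VSIG1 at only 1.22 against 0.410 CPM. On the same list 4 genes were at least 2-fold lower, MUC5AC (8.70 against 63.4 CPM), TFF1 (10.49 against 53.3 CPM), TFF2 (33.5 against 113 CPM) and AGR2, a disulfide isomerase of mucin-producing cells (43.6 against 92.4 CPM). Within day 5 the trefoil factors TFF1 and TFF2 and AGR2 stood at ratios of 0.667, 0.577 and 0.970, and MUC5AC at 0.0448. No UMI of GKN2, another gastrokine of the stomach, was counted in the cluster. Of the hepatocyte list, APOH was the one gene with enough UMIs, and the other 8, ALB and APOA1 among them, had no UMI in cluster 12. Of 19 retinoid genes, CRABP2 alone was at least 2-fold higher and 5 were at least 2-fold lower, beside 13.1% of all genes. Among the 5 were RARB, the retinoic acid receptor beta, at 4.88 against 11.4 CPM, and TGM2, transglutaminase 2, at 3.58 against 10.8 CPM. Within day 5, 2 of 17 retinoid genes were at least 2-fold lower, beside 7.72% of all genes. Against the other ductal-named cells it was 1 of 16, beside 3.56%.

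Of the markers by which the study named cell classes, BCL2A1 alone was at least 2-fold higher over the 3 days together, and several were lower. Over all genes 0.803% were higher and 13.1% lower. Of the 6 ductal markers none was at least 2-fold higher, which is near the share over all genes and says little about the name. KRT19, a keratin of ducts, stood at 5648 against 4153 CPM, ADIRF at 2104 against 2272, S100A10 at 1154 against 1576 and CAPG at 310 against 348 CPM. KRT5, a basal cell keratin, was lower, at 204 against 540 CPM, with ratios of 0.344 at day 5 and 0.286 at day 7. Of the 11 progenitor markers BCL2A1 was at least 2-fold higher and TFF3, MUC13, MUC5AC and MUC5B at least 2-fold lower, while TSPAN8, a tetraspanin, stood at 130 against 76.7 CPM. Within day 5, 0 of the 11 were at least 2-fold higher, beside 0.624% of all genes. Against the other ductal-named cells it was also 0 of 11, beside 0.626%. The 7 acinar markers all lay within 2-fold, as did 3 of 5 centroacinar markers, with PROM1 and S100A4 lower. The name ductal is the authors' own, and the ratios of its 6 markers ran from 0.378 (KRT5) to 1.36 (KRT19) against the other CF cells.

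Over the 3 days together, none of 20 tight junction and polarity genes passed 2-fold in either direction. Within day 7, 1 was at least 2-fold higher (CLDN18) and 2 at least 2-fold lower (CLDN3 and CLDN12). Over the 3 days the largest ratio was that of CLDN4, a claudin, at 485 against 276 CPM (1.76-fold). KRT8, a keratin of simple epithelia, stood at 1667 against 935 CPM and was 1.99-fold higher within day 5. Of 29 transcription factors of epithelial differentiation, OVOL1 and HNF4A, the latter at 1.95 against 0.813 CPM, were at least 2-fold higher. ELF3, an ETS factor of simple epithelia, stood at 599 against 341 CPM. TP63, the basal cell master regulator, stood at 29.9 against 84.4 CPM, and at 32.2 against 91.9 CPM within day 5, and SOX4 at 358 against 788 CPM. Of 21 duct transport genes AQP3, an aquaglyceroporin, was at least 2-fold higher, at 628 against 312 CPM, but 1.40-fold higher within day 5.

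Proliferation genes were lower in cluster 12 than in the pool of all other CF cells. Of 16 genes of G2 and mitosis, 14 were at least 2-fold lower in cluster 12 and none higher, with a list median of -1.26 on the log2(CPM + 1) scale and -2.05 within day 5, beside medians of -0.15 and -0.11 over all genes. TOP2A, a topoisomerase of dividing cells, stood at 0.976 against 8.09 CPM, CENPF, a kinetochore protein, at 0.325 against 9.81 CPM, and MKI67, the Ki-67 antigen, at 0.407 against 3.43 CPM. Of 14 S phase genes, 7 were at least 2-fold lower. Against the other ductal-named cells, 12 of 14 genes of G2 and mitosis and 10 of 13 of S phase were at least 2-fold lower, beside 3.56% of all genes. That reference holds 21 cells of cluster 9 and 56 of cluster 10, and without those clusters, a choice made after seeing the data, 2 of 7 and 0 of 11 were at least 2-fold lower, with medians of -0.28 and 0.03, beside 2.86% of all genes. Clusters 9, 10 and 24 likewise gave the pool of all other CF cells 21, 53 and 40 cells at day 5. Without those 3 clusters, also a choice made after seeing the data, 1 of 11 genes of G2 and mitosis and 3 of 13 of S phase were at least 2-fold lower, beside 12.5% of all genes. The medians were then -0.08 and -0.20, and within day 5 the counts were the same, beside 6.75% of all genes, with medians of -0.19 and -0.25. These genes are low in number, and 1 UMI in the cluster is worth 0.0813 CPM.

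Matrix and mesenchymal lists had low medians over the 3 days together, with 13 of 13 collagens and matricellular genes and 13 of 15 mesenchymal genes at least 2-fold lower. Within day 5, where 7.72% of all genes were at least 2-fold lower, these counts were 7 of 9 and 7 of 12, with medians of -0.88 and -1.25, above the -2.05 of the G2 and mitosis genes. Against the other ductal-named cells 3 of 5 and 1 of 9 were at least 2-fold lower, and the mesenchymal list's median was 0.02 in place of -2.22, over members that went both ways, FN1 at -1.67 and TPM1, a tropomyosin, at 0.33 among them. Without clusters 3, 11 and 23, a choice made after seeing the data, 10 of 10 collagens and matricellular genes were still at least 2-fold lower. So were 11 of 14 mesenchymal genes, with medians of -1.15 and -0.96, beside 9.28% of all genes. Of 13 Notch pathway genes, 5 were lower than in all other CF cells. They were the ligands JAG2 (9.84 against 35.8 CPM), DLL1 (16.8 against 45.3 CPM) and JAG1 (64.6 against 136 CPM), the Notch glycosyltransferase LFNG (11.96 against 52.2 CPM) and HES4, barely detected. The receptor NOTCH1 stood at 68.4 against 65.1 CPM. Within day 5, DLL1, JAG2 and LFNG remained at ratios of 0.325, 0.285 and 0.260, with JAG1 at 0.677. Against the other ductal-named cells 0 of 11 Notch genes were at least 2-fold lower, beside 3.56% of all genes, and JAG1 stood at a ratio of 1.23.

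Defence genes split. S100A9 was at least 2-fold higher over the 3 days together, but 1.88-fold within day 5 and 1.89-fold within day 7, and 6 of 12 genes at least 2-fold lower, among them LTF (11.8 against 97.99 CPM). WFDC2, a secreted protease inhibitor, stood at 156 against 121 CPM over the 3 days but was 2.04-fold higher within day 5 and 6.20-fold within day 7. Defining markers of several other cell types had no UMI in the cluster. PTPRC, C1QA and CD3E of the immune list had no UMI in cluster 12, and the 6 immune genes summed to 17.0 CPM, against 23.4 CPM in the other CF cells. CD68, a lysosomal protein, stood at 11.9 against 5.94 CPM. The endocrine and endothelial lists each summed to 0.0813 CPM, the worth of 1 UMI, against 0.160 and 0.146 CPM in the other CF cells. The acinar enzyme list also summed to 0.0813 CPM, against 0.167 CPM. Only 4 of its 9 genes were measured, PRSS1 and CTRB1 not among them. The low levels of these lists were thus not particular to the cluster. The mesothelial list summed to 63.5 CPM, all of it UPK3B, and its member MSLN was not among the measured genes.

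**Figure D5:**
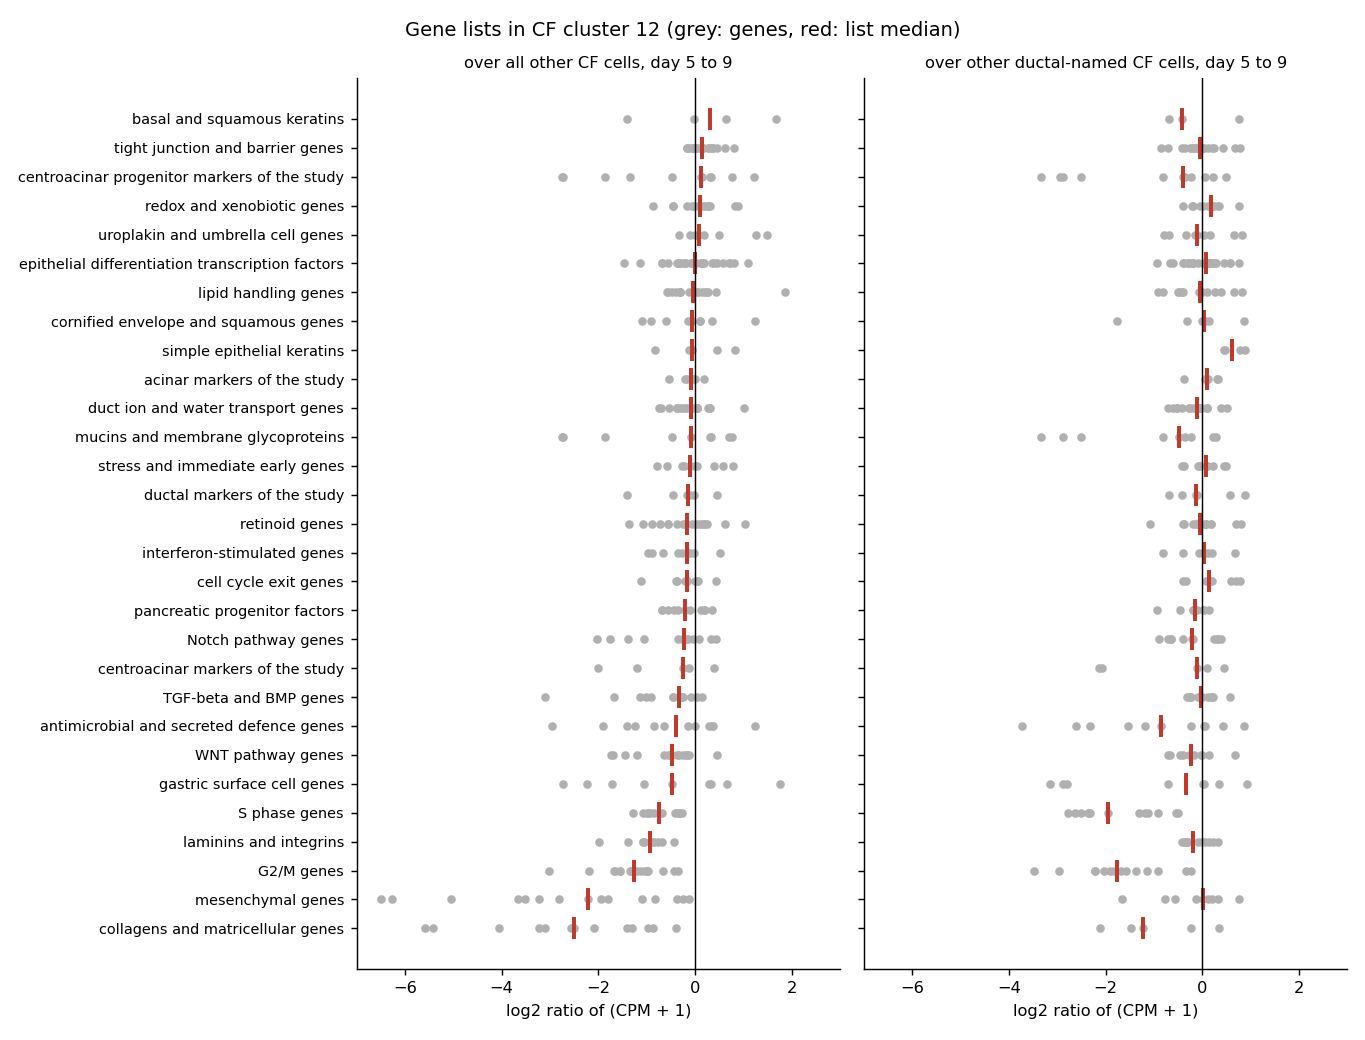
Difference of cluster 12 from all other CF cells (left) and from the other ductal-named CF cells (right), day 5 to 9, as log2 ratio of (CPM + 1), for lists with at least 4 genes of 30 UMIs or more. Grey points are genes and red bars list medians, and the mesenchymal median moves from -2.22 on the left to 0.02 on the right while that of the G2 and mitosis genes is low in both (-1.26 and -1.76), with cells of clusters 9 and 10 in both references and of cluster 24 in the left one.

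The nearest CF clusters by Pearson's correlation of log2(CPM + 1) over 14068 genes were cluster 25 (r = 0.985), cluster 22 (0.984) and cluster 18 (0.982), with the same order by Spearman's rank correlation. These correlations are across genes of summed clusters that share libraries. Clusters 25 and 18 are named centroacinar progenitor, and cluster 22 ductal. Cluster 25, with 169 of 197 cells at day 5, was lower than cluster 12 for all 6 label markers within day 5, from a ratio of 1.18 for BCAS1 (1.08 to 1.30) to 2.27 for SELENBP1 (1.87 to 2.75), and UPK3A stood there at 74.3 CPM. Its G0S2 level of 222 CPM was also lower than the 496 CPM of cluster 12.

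Cluster 18 was spread over days 5, 7 and 9. Within day 5 its UPK3A, APOH and PSCA levels were within counting error of those of cluster 12, at ratios of 1.08 (0.949 to 1.24), 0.914 (0.652 to 1.31) and 1.01 (0.947 to 1.08), and GKN1 was 1.29-fold higher in cluster 12 (1.16 to 1.44). The basal cell genes KRT5 and TP63 were higher in cluster 12, with KRT5 at 208 CPM in cluster 12 against 44.7 CPM in cluster 18 and TP63 at 32.2 against 10.6 CPM. Cluster 22, with 215 of 218 cells at day 2, held as much ZNF750 (116 against 110 CPM) and more KRT4 and S100A9 (143 CPM), but UPK3A stood there at 10.8 CPM and CRABP2 at 220 CPM, against 118 and 1089 CPM in cluster 12.

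Pseudotime values on several CF lineages were deposited beside the cell annotation. In cluster 12, values on lineages 1 and 2 were given for 75.2% and 76.2% of its 391 cells, and on lineage 4 for 28.6%, against 43.05%, 35.3% and 43.7% of the other CF cells. Trajectories were rooted in a cluster rich in day 2 cells, so the low values of day 2 follow from that choice. The median on lineage 1 was 33.6 (quartiles 26.3 and 39.6), between 13.6 in CF cells of day 2 and 41.05 in the other CF cells of day 5 to 9, and on lineage 2 it was 29.95, between 14.1 and 45.9. On lineage 4 the median was 15.6, between 9.27 and 29.0. The position is drawn from the same expression values as the clusters.

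The cell annotation numbers WT clusters apart from CF clusters. Among the 27 WT clusters with at least 50 cells at day 5 to 9, the most alike were WT cluster 22, named ductal (r = 0.976), WT cluster 30, named centroacinar (0.975), and WT cluster 17, named ductal (0.960). Among these 27 clusters the highest level of UPK3A was 40.7 CPM (36.8 to 44.9), in WT cluster 17, and of GKN1 86.5 CPM (80.8 to 92.6), in WT cluster 22, against 119 and 188 CPM in cluster 12. WT cluster 33, outside the 27, held 99.85 CPM of GKN1 with all days summed. APOH, by contrast, reached 16.05 CPM in WT cluster 22 (13.6 to 18.8), near the 16.7 CPM of cluster 12, and CRABP2 reached 1268 CPM in WT cluster 30, above it. SELENBP1 reached 126 CPM in WT cluster 16, above the 47.2 CPM of cluster 12, and BCAS1 reached 178 CPM in WT cluster 17, above the 134 CPM of cluster 12.

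Within day 5, WT cluster 22 had 230 cells, with lower UPK3A than cluster 12. UPK3A stood at 14.3 CPM there and 111 CPM in cluster 12, a ratio of 7.78 (6.18 to 9.92), PSCA at 92.3 against 459 CPM and KRT4 at 5.13 against 38.5 CPM. GKN1 stood at 93.9 against 194 CPM, 2.07-fold higher in cluster 12 (1.87 to 2.28), and APOH at 19.95 against 15.1 CPM, lower in cluster 12 (0.756, 0.587 to 0.975). Against the 30 day 5 cells of WT cluster 30 and the 30 of WT cluster 17 the UPK3A ratio was smaller, at 3.24 (2.29 to 4.72) and 2.295 (1.57 to 3.50), as was that of PSCA, at 2.08 and 2.23. Against WT cluster 22, PAX6 was lower in cluster 12, at 56.2 against 114 CPM. No PDX1 UMI was counted in WT cluster 22 at day 5, against 52 UMIs in cluster 12, which made PDX1 at least 9.33-fold higher in cluster 12, counting 3 UMIs as the limit in the WT cluster. The exact interval of that ratio, which also counts the error of the 52 UMIs, starts at 7.32. WT clusters 30 and 17 also had no PDX1 UMI at day 5, and with their fewer cells the bounds were only 1.64 and 0.953. Over whole libraries PDX1 ran from 3.37 to 5.04 CPM in CF and from 0 to 0.012 CPM in WT, so this difference was not particular to the cluster. The genotype and the library cannot be told apart in these values.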

How the data were processed

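The deposited files held counts of UMIs per gene and cell for 8 droplet libraries, with a table of retained cells giving the authors' cluster, cell type name and mitochondrial percent, and a separate deposited table of pseudotime scores. Per the labels and methods, the authors made the counts with Cell Ranger (version 5.0.1), using ferret assembly ASM1176430v1.1, and clustered in Seurat under R 4.1.2. Cells under 200 genes or over 20% mitochondrial reads were dropped by them, and they removed doublets, merged libraries without batch correction. Clustering of the merge is described with 30 principal components at resolution 0.6, and the deposited cluster names are separate for WT and CF. Their deposited normalized values were not used here. No value column lacked a library (0 columns).

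The UMI counts of the retained cells were summed per cluster, day and reference pool and divided by the pool total to give UMIs per 1000000 UMIs (CPM). Genes with at least 30 UMIs in both pools together were compared. A gene was called higher or lower at a ratio of 2, and log2 ratios used a pseudocount of 1 CPM. Intervals were exact Poisson for levels, exact conditional binomial for ratios and Clopper-Pearson for shares, all at 95%, and a count of 0 was given the limit of 3 counts. With 1 library per genotype and day no test was made. Scaling alternatives used edgeR 4.0.16 and DESeq2 1.42.0 factors in R 4.3.3, and the rest Python 3.11.15 with pandas 2.3.3 and scipy 1.17.1. The scripts were tested on simulated data.

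Genes were named by rule: the 6 label markers, the 20 highest ratios where the cluster reached 10 CPM, with a symbol and the same direction at days 5 and 7, the 10 lowest where the other cells reached 50 CPM, up to 4 members of largest difference and 2 of highest level from each of 38 lists, and CFTR, PDX1, SOX2 and PAX6. Other list members were named to account for a list. The members and lists were chosen with earlier results of these data known.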

Additional observations from a re-analysis of the deposited data

Results flagged for a closer look

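For 3 named genes the ratio of cluster 12 to the other CF cells lay on opposite sides of 1 at day 5 and day 7 with both counting intervals clear of 1. Other named genes lay on opposite sides with an interval that held 1, among them COL1A1, with 1 UMI in cluster 12 at day 5. KRT7, a keratin of simple epithelia, stood at 1.06 at day 5 and 0.867 at day 7. FXYD3, a regulator of the sodium pump, stood at 0.947 and 1.04, and CCND1, which encodes cyclin D1, at 0.83 and 1.15. The difference between the days was not tested, since each day is 1 library.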

How the results depend on the processing

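The count of genes at least 2-fold higher in cluster 12 (113) was 199 with TMM scaling, 204 with DESeq2 size factors, 633 with no minimum count, 28 with a minimum of 10 CPM, 269 at days 7 and 9, 187 without cells over 10% mitochondrial and 72 against the other ductal-named cells. The count at least 2-fold lower (1845) was 5686, 317 and 410 with no minimum, with 10 CPM and against ductal-named cells, and 990 at day 5 alone. On the log2(CPM + 1) scale 4 of the 6 label markers passed 2-fold, and 0 did against the ductal-named cells, 3 with the mean of per-cell CPM, and 5 with TMM, with DESeq2 factors, at days 7 and 9, without cells over 10% mitochondrial and without the top 10% by UMIs. The number of lists with a median of -1 or less (3) was 5 against ductal-named cells, 5 with other cells weighted to the cluster's days, 6 without cells over 10% mitochondrial and 5 without the top 10% of cells by UMIs. Against the ductal-named cells the log2 ratio changed sign for the mesenchymal list's median (0.017), CALD1 (0.11), ANKRD1 (0.084), VIM (0.017), SOX4 (0.20), TPM1 (0.33), ITGB4 (0.22), JAG1 (0.30), WNT7A (0.68), INHBA (0.022) and TGFB1 (0.20). It also changed sign for COL1A1 at day 5 alone (0.023) and for the hepatocyte list's median with no minimum count (-0.020). The cause was not tested. Of 74 called named genes, 63 kept their direction under all 14 alternatives, of which leaving out clusters 3, 11 and 23 was chosen after seeing the data. Several of the 14 could not have turned the direction of a called gene. These were TMM and DESeq2 scaling, the changed count minimums and a pseudocount of 5 CPM. Leaving clusters 9 and 10 out of the ductal-named reference, also chosen after seeing the data, took the median of the G2 and mitosis list from -1.76 to -0.28. Leaving clusters 9, 10 and 24 out of all other CF cells took it from -1.26 to -0.08. No paired analysis was possible because each genotype and day has 1 library. The 12 cells of day 9 limit every value given there.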
